A study of Nothobranchius furzeri with 15 samples.

Results

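Gene expression in the brain was compared with that in the liver of the turquoise killifish Nothobranchius furzeri, a fish of seasonal pools with a very short life. The comparison used 10 of the 15 libraries of the series, 5 from brain and 5 from liver, chosen by tissue and by the number in their titles. The other 5 libraries, from skin, enter only where skin is named. All fish were of the laboratory strain GRZ and 12 weeks old, and no treatment or genetic change is named in the labels. The titles carry the numbers 10, 11, 13, 14 and 15 in both tissues. No label says what these numbers mark, whether a library came from 1 fish or several, or which sex the fish were. A library is called below by its tissue and number, such as liver 15.

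The brain is built of neurons and glia, which use many genes at moderate levels for synapses, ion channels and myelin. The liver is built mostly of hepatocytes, which secrete blood plasma proteins and carry out much of the body's metabolism, and a few secreted proteins can take a large part of their messenger RNA. Many fish genes also exist as pairs of copies kept from a genome duplication in the ancestor of teleosts. These statements are background and not results.

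Reads were counted per entry of a killifish transcript catalogue with 18311 entries. All but 1 of the entries carry a zebrafish gene identifier. The authors marked 13561 of them as best bidirectional hits, a term for killifish and zebrafish sequences that are each other's best match. The mark can fall on more than 1 entry of an identifier, as for Nofu_gene_3_0000460 and Nofu_gene_3_0000461 (both ENSDARG00000062272). Catalogue totals ran from 19.6 to 30.8 M counts in brain and from 20.6 to 26.1 M in liver. Liver 15 stood apart from the other livers in several measures, and liver 10, 13 and 14 and brain 10 each had between 30 and 133 entries at least 4-fold above the rest of their tissue. These values are given below. The identifiers were not paired with gene names in the files, and none of them matched the reference table, so entries are given by identifier and the 25 lists of tissue and pathway genes could not be counted. For the same reason the tissue labels could not be checked against known markers of brain or liver.

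Brain and liver differed in most of the genes measured. Of 16137 entries with enough counts to be tested, 11958 (74.1%) passed the test in either direction, with 6371 (39.5%) higher in brain and 5587 (34.6%) higher in liver. A difference of at least 4-fold was called for 3491 entries (21.6%) in favour of brain and for 2212 (13.7%) in favour of liver. The test was edgeR's quasi-likelihood test with Benjamini-Hochberg adjusted p under 0.05. All 5 brain libraries lay above all 5 liver libraries for 5511 entries (34.2%), and all 5 liver libraries lay above all 5 brain libraries for 4457 (27.6%). Differences are given as brain over liver, so that a positive log2 fold change stands for a higher level in brain. In these bulk tissues, more cells of a type and more RNA per cell cannot be told apart.

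Brain had more of the large differences than liver. At 2-fold and above, 5069 entries were called higher in brain and 4137 higher in liver. At 16-fold and above these counts were 1989 in brain and 778 in liver, and at 64-fold and above 969 in brain and 385 in liver. Brain thus held 55.1% of the 2-fold calls, 71.9% of the 16-fold calls and 71.6% of the 64-fold calls. At 256-fold and above, brain held 288 and liver 224, a share of 56.3% for brain. Among the entries tested, 78 had counts in brain libraries only, and their fitted fold changes depend on the small count that edgeR adds. The middle of the distribution lay near equality, with a median log2 fold change of 0.08. The highest 25% of the entries lay at or above 1.57 and the lowest 25% at or below -1.08.

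**Figure D1:**
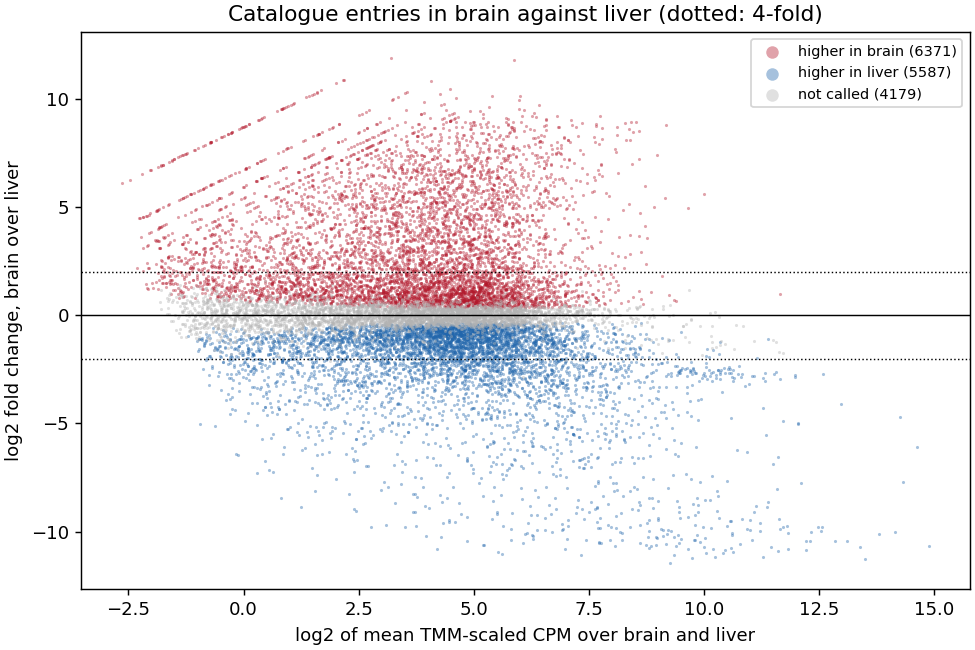
The log2 fold change of brain over liver (vertical axis) is plotted against the log2 of the mean level in CPM, counts-per-million scaled by TMM (horizontal axis), with 1 point per tested entry. The 6371 entries called higher in brain lie above 0 over the whole range of levels, and the entries with the highest mean levels lie mostly below 0, on the side of the liver. The straight lines of points at the upper left are entries with counts near 0 in liver.

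The split between the tissues depended on the scaling. TMM, the scaling used here, sets libraries to a common level over most entries, and its factors ran from 1.58 to 1.76 in brain and from 0.542 to 0.739 in liver. Without it, each library was scaled by its total only. The median log2 fold change was then 1.5, and 84.2% of the calls were higher in brain, against 53.3% with TMM. All 6371 entries higher in brain with TMM were also called higher in brain without it. Of the 5587 entries higher in liver with TMM, 2140 were called higher in liver without it and 1246 were called higher in brain. Of the entries at least 4-fold apart with TMM, all 3491 of brain and 2042 of the 2212 of liver were called in the same direction without scaling, and none was turned. Leaving out TMM moved the log2 fold changes towards brain, from a median of 0.08 to 1.5. That the brain calls were kept and no large liver call was turned is thus largely fixed by this shift and supports nothing. The number called at least 4-fold apart without scaling was 6232 in favour of brain and 973 in favour of liver. With the authors' RPKM values, which are scaled by totals, 85.0% of calls by limma were higher in brain.

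The counts of a liver library were held by few entries. The number of entries that together made up 50% of the counts was between 1169 and 1506 in the brain libraries. In liver it was between 101 and 110 in 4 libraries and 181 in liver 15. The groups did not overlap. The 3491 entries at least 4-fold higher in brain held 31.7% ± 1.87 of the counts in brain and 0.703% ± 0.147 in liver (SD, n = 5 each). The 2212 entries at least 4-fold higher in liver held 9.59% ± 0.835 of the counts in brain and 72.3% ± 3.98 in liver (SD, n = 5 each). These sets were chosen on the same values, so the shares describe them and support nothing. The 4179 entries with no call in either direction held 24.8% ± 2.19 of brain counts and 11.2% ± 2.82 of liver counts (SD, n = 5 each).

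Levels per gene length, in RPKM (reads per kilobase of length and per-million counts), were compared for the sets at least 4-fold apart. The median entry of the set higher in brain had 13.5 RPKM in brain and 0.179 RPKM in liver. The median entry of the set higher in liver had 3.18 RPKM in brain and 16.8 RPKM in liver. The median level in the lower tissue was thus higher for the set of the liver than for the set of the brain, as a description of sets chosen on these values. RPKM values are scaled by totals, while the sets were called with TMM, so the gaps between the tissues are not on the scale of the calls. In CPM scaled by TMM over all 15 libraries, the medians of the brain's set were 24.9 in brain and 0.861 in liver. Those of the liver's set were 4.63 in brain and 75.6 in liver. Of all catalogue entries, 441 had counts in brain libraries only and 71 in liver libraries only, while 268 had no count in any of the 10. Taking 3 counts as the limit that a count of 0 allows, an entry without counts could reach between 0.0598 and 0.0910 CPM in 1 brain library and between 0.174 and 0.261 CPM in 1 liver library. These limits differ through the TMM factors. By library totals alone they overlapped, between 0.0974 and 0.153 CPM in brain and between 0.115 and 0.146 CPM in liver.

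The most abundant entries of both organs overlapped. Of the 100 entries with the highest mean RPKM in brain, 50 were also among the 100 highest in liver. Of the brain's 100, 19 were called higher in brain, 50 higher in liver, 30 were not called and 1 was not tested. Of the liver's 100, none was called higher in brain, 95 were called higher in liver and 5 were not called. Among the 50 shared entries, 45 were called higher in liver. Of all tested entries, 39.5% were called higher in brain and 34.6% higher in liver. The liver's 100 were chosen by their liver level in these same libraries. Their tilt to liver is thus largely fixed by that choice and supports nothing. Without scaling, the brain's 100 split into 41 higher in brain and 42 higher in liver, and the liver's 100 into 1 higher in brain and 92 higher in liver.

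Among the entries at least 4-fold higher in brain, the most abundant was Nofu_gene_3_0018779, with zebrafish identifier ENSDARG00000055216. It had 1371, 2384, 2449, 2269 and 1551 CPM in brain libraries 10, 11, 13, 14 and 15. In liver libraries of the same numbers it had 26.6, 29.1, 28.3, 26.9 and 96.9 CPM. The groups did not overlap, and liver 15 was the highest liver library, at over 3 times any other. Brain over liver, the log2 fold change came to 5.59, with an SE of 0.47 and an edgeR adjusted p of 2.35e-07. Without liver 15 it was 6.13, and without scaling it was 6.93. Per length it had 1725 ± 465 RPKM in brain, 14.1 ± 12.9 RPKM in liver and 66.7 ± 9.73 RPKM in skin (SD, n = 5 each). It ranked 4 of all entries in brain and 2529 in liver.

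The zebrafish identifier of Nofu_gene_3_0018779 is shared by 3 other entries of far lower level. One had 5.57 CPM in brain and 37.6 CPM in liver, a log2 fold change of -2.76 (edgeR adjusted p = 5.06e-05), and without scaling it was -1.40. Another had 3.72 CPM in brain and 6.42 CPM in liver, a log2 fold change of -0.79 (edgeR adjusted p = 0.00777), but its sign turned without scaling, at 0.61 (edgeR adjusted p = 0.0630). The last had 5.47 CPM in brain and 2.14 CPM in liver, with a log2 fold change of 1.41 that did not pass the test (edgeR adjusted p = 0.132) and a value of 2.90 without scaling that did (edgeR adjusted p = 0.00548). How reads that match several entries were counted is not given, so these values are uncertain.

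The second entry higher in brain was Nofu_gene_3_0000632, with identifier ENSDARG00000019702. It had 1490.3, 1695, 1597, 1341 and 1710.0 CPM in brain 10, 11, 13, 14 and 15. In liver it had 44.1, 25.4, 29.8, 31.0 and 122 CPM in that order of numbers. Again the groups did not overlap, and again liver 15 stood above the other livers. Its log2 fold change of 4.96 had an SE of 0.46 and an edgeR adjusted p of 6.95e-07, leaving out liver 15 gave 5.53, and without scaling it was 6.28. The other entry of the same zebrafish identifier rose as well, with 145 CPM in brain and 4.23 CPM in liver and a log2 fold change of 5.11 (edgeR adjusted p = 1.03e-08).

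Among the entries at least 4-fold higher in liver, the most abundant was Nofu_gene_3_0000917, with identifier ENSDARG00000012076. It had 606, 876, 877, 686 and 650.3 CPM in brain 10, 11, 13, 14 and 15. In liver it had 49582, 56807, 52200.4, 59802 and 30755 CPM in that order. Liver 15 was the lowest liver library, and every liver library was far above every brain library. Brain over liver, the log2 value was -6.07, with an SE of 0.32 and an edgeR adjusted p of 2.93e-09, and without scaling it was -4.62. This single entry took 0.122% ± 0.0217 of the counts in brain and 2.99% ± 0.528 in liver (SD, n = 5 each). Per length it ranked 69 in brain, with 609 ± 108 RPKM, and 1 in liver, with 14920.3 ± 2638 RPKM, while skin had 12.5 ± 7.49 RPKM (SD, n = 5 each).

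The second entry higher in liver was Nofu_gene_3_0018634, with identifier ENSDARG00000042993. It varied widely between libraries of both tissues. In brain it had 64.8, 12.0, 33.6, 10.5 and 6.14 CPM for numbers 10, 11, 13, 14 and 15. In liver it had 36102, 25333, 10183, 26226 and 43918 CPM. The library highest in brain, brain 10, has the second highest liver library of the same number, and the library lowest in brain, brain 15, has the highest. Its log2 fold change of -10.12 had an SE of 0.89 and an edgeR adjusted p of 3.68e-07, leaving out brain 10 gave -10.83, and without scaling it was -8.75. It took 0.00415% ± 0.00395 of the counts in brain and 1.79% ± 0.989 in liver (SD, n = 5 each).

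**Figure D2:**
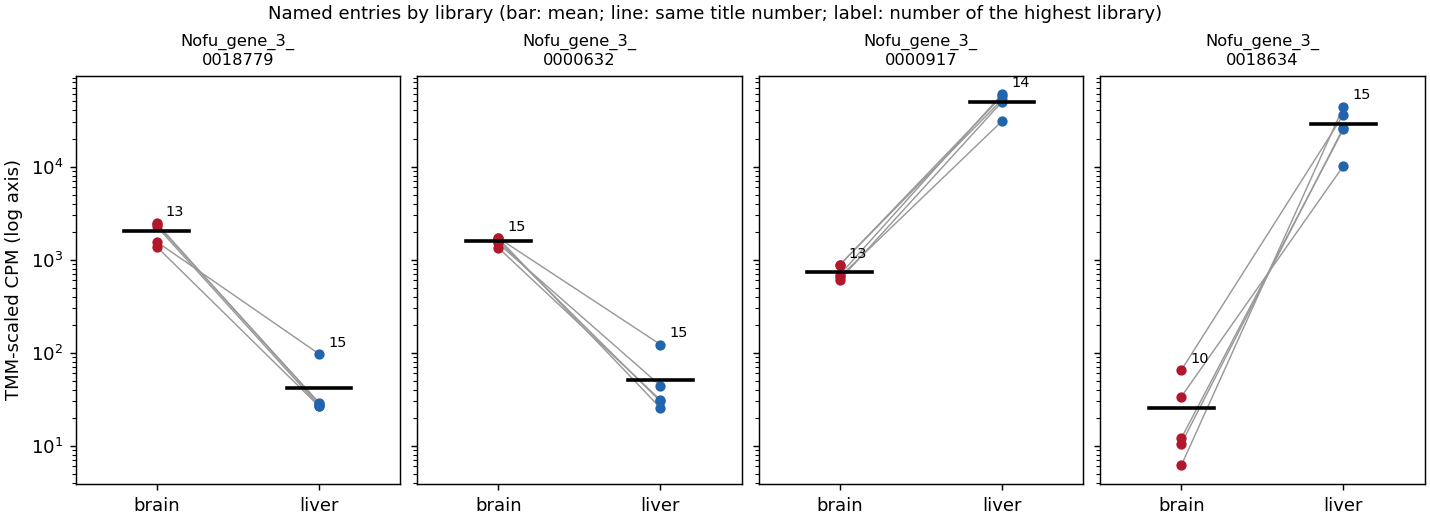
Levels of the 4 named entries in CPM scaled by TMM, on a log axis, with brain libraries at the left and liver libraries at the right of each panel, bars at the mean of 5 libraries and lines joining libraries of the same title number. In each panel the 5 lines run the same way, and liver 15 stands at 96.9 and 122 CPM above the other livers in the first and the second panel.

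The paired comparison used the title number as a block. With it, 11721 of 16137 entries (72.6%) passed, 6385 of them higher in brain and 5336 higher in liver. Both fits called 11507 entries, all with the same sign. A further 451 entries were called only without the block and 214 only with it, while 3965 were called by neither. The entries called only without the block had a median absolute log2 fold change of 0.58, and those called by both 1.96, in the fit without it. Those called only with the block had 0.85 in the fit with it. As these values come from different fits, they are not a like comparison. For the 4 named entries the blocked log2 fold changes were 5.81 for Nofu_gene_3_0018779, 5.24 for Nofu_gene_3_0000632, -6.06 for Nofu_gene_3_0000917 and -10.51 for Nofu_gene_3_0018634, and each kept its call.

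The counts of large differences were close to each other in the 5 numbers, with a prior count of 2 added before taking logs. Brain was at least 4-fold above liver for 3515, 3700, 3616, 3574 and 3647 entries in numbers 10, 11, 13, 14 and 15. Liver was at least 4-fold above brain for 2220, 2167, 2114, 2293 and 2234 entries. In all 5 numbers brain exceeded liver for 6322 entries and liver exceeded brain for 5214, and for 4601 the direction varied between numbers. Of the entries called higher in brain, 96.0% (6115 of 6371) were higher in all 5 numbers. Of those called higher in liver, 90.5% (5054 of 5587) were lower in brain in all 5. The calls were made on these same libraries, so this agreement is largely fixed by the call and supports nothing. A difference of at least 4-fold was seen in each of the 5 numbers for 2739 entries in favour of brain and for 1394 in favour of liver.

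Whether the numbers pair the libraries was examined through the deviation of each library from the mean of its tissue. The correlation of these deviations across the 16137 entries, which are not independent replicates, was between 0.069 and 0.191 for the 5 same-number pairs, with a median of 0.111. For pairs of different numbers it was between -0.171 and 0.150, with a median of -0.020. Deviations from a tissue mean cancel out within the tissue, so a positive same-number value by itself pushes the others down. The pairs of different numbers are therefore no independent baseline. Of the 5 same-number pairs, 3 were over 0.1, below the requirement that all be, so the libraries are treated as sharing a number only. In 4 of the 5 brain libraries, and in 4 of the 5 liver libraries, the best match in the other tissue was the one of the same number. The exceptions were brain 13 with liver 11, at 0.150, and that same pair seen from the liver. Among the 9043 entries with a mean of at least 100 counts in both tissues, a subset looked at afterwards, all 5 same-number pairs were over 0.1, between 0.110 and 0.173. Pairs of different numbers in that subset ran from -0.191 to 0.262. Brain 13 with liver 11, at 0.262, was above every same-number pair, and brain 14 with liver 15, at 0.119, and brain 15 with liver 13, at 0.102, were also over 0.1.

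**Figure D3:**
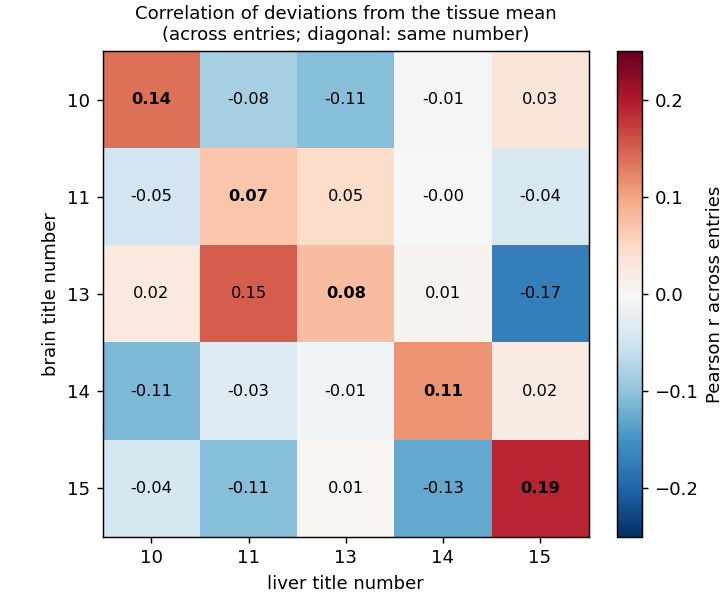
Pearson correlation, across 16137 entries, of the deviations of each brain library (rows) and each liver library (columns) from the mean of its tissue, with bold figures for the same title number. The same-number values on the diagonal run from 0.07 to 0.19, and the value for brain 13 and liver 11 is 0.15.

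The title number itself was a term in the blocked fit. It passed for 3 entries (0.0186% of those tested), and 758 entries (4.70%) had an unadjusted p under 0.05. Chance alone would give a share of 0.05 if the p-values of this term were exact. That was not examined, and the entries are not independent. The share therefore does not decide whether the number has an effect. The 3 entries were named after their values were seen. Nofu_gene_3_0000841 (ENSDARG00000063011) had 4.07 CPM in brain 10 and 0.240 to 0.394 CPM in the other brains, and 173 CPM in liver 10 and 6.21 to 10.5 CPM in the other livers (edgeR adjusted p = 0.00954 for the number). Nofu_gene_3_0002521 (ENSDARG00000069216) had 8.99 CPM in brain 10 and 0.841 to 2.94 CPM in the other brains, and 164 CPM in liver 10 and 17.0 to 44.6 CPM in the other livers (edgeR adjusted p = 0.0388). Both were thus highest in number 10 in both organs, and both were lower in brain.

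The third, Nofu_gene_3_0013282 (ENSDARG00000043135), was higher in brain. It had 207 CPM in brain 10 and 2.21 to 3.22 CPM in the other brains, with edgeR adjusted p = 0.0468 for the number. In liver it had 5 counts in liver 10 and 0, 2, 0 and 1 counts in liver 11, 13, 14 and 15, so that its liver values rest on very few reads. The libraries of number 10 lay apart in these entries, and the part that a single library such as brain 10 has in this call was not tested.

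Liver libraries varied more among themselves than brain libraries. The biological coefficient of variation, edgeR's common measure of spread between replicates, was 0.210 in brain and 0.402 in liver. Leaving out each library in turn gave 0.192 to 0.230 in brain and 0.325 to 0.428 in liver, the lowest liver value being that without liver 15, so the ranges did not overlap. Per entry, the median SD of log2 CPM, with the same prior count, was 0.229 in brain and 0.439 in liver. The SD was larger in liver for 12898 of 16137 entries (79.9%). Among 4894 entries with a mean of at least 100 counts in both tissues and levels less than 2-fold apart, it was larger in liver for 3816 (78.0%). An SD over 1 was found for 176 entries in brain and 1470 in liver.

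**Figure D4:**
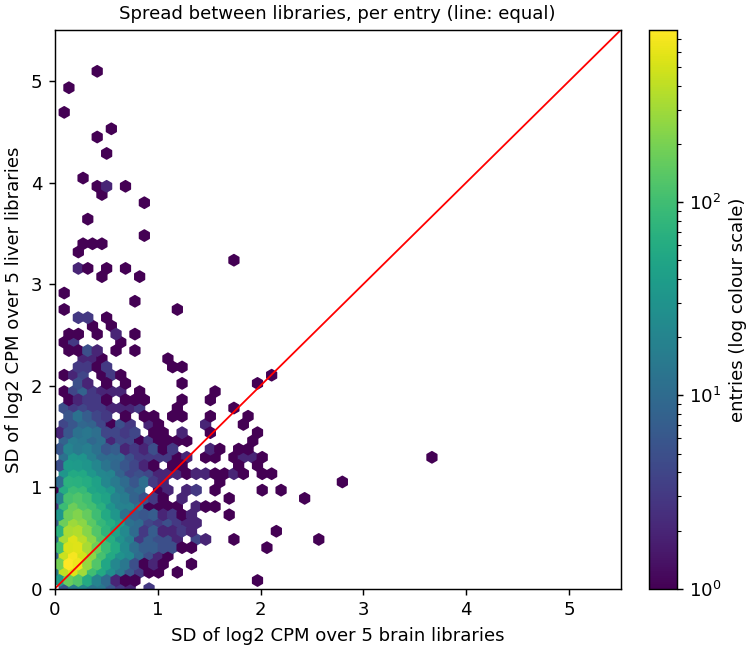
The SD of log2 CPM over the 5 brain libraries (horizontal axis) is plotted against that over the 5 liver libraries (vertical axis), with colour for the number of entries and a line at equal SD. Of the 16137 entries, 79.9% had the larger SD in liver and lie above the line.

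The libraries that stood apart were mostly livers. Among entries with a mean of at least 20 counts, 30, 2, 8, 2 and 2 entries were at least 4-fold above the other 4 brain libraries in brain 10, 11, 13, 14 and 15. The same count was 89, 7, 66, 133 and 225 in liver 10, 11, 13, 14 and 15. Liver 15 was also the library with the lowest share of counts in the 2212 entries higher in liver, 67.0%, against 69.4% to 76.0% in the other livers. Its level relative to the other livers had a median log2 value of -0.33 over those entries. The 3491 entries at least 4-fold higher in brain held 0.943% of its counts, against 0.572% to 0.712% in the other livers. Over these entries its median log2 value relative to the other livers was 0.008. It was the highest liver library for 26.0% of them and for 31.2% of all entries tested. The shares of counts are not scaled by TMM, while the log2 values are. Without liver 15, 12683 entries were called, 6734 higher in brain and 5949 higher in liver.

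The 2212 entries at least 4-fold higher in liver also held part of the brain counts. Their share was 9.62%, 9.97%, 10.8%, 8.90% and 8.70% in brain 10, 11, 13, 14 and 15. Brain 13 was the highest brain library for 41.2% of these entries and for 31.9% of all entries tested. These values stand beside the comparison, and their part in it was not tested.

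**Figure D5:**
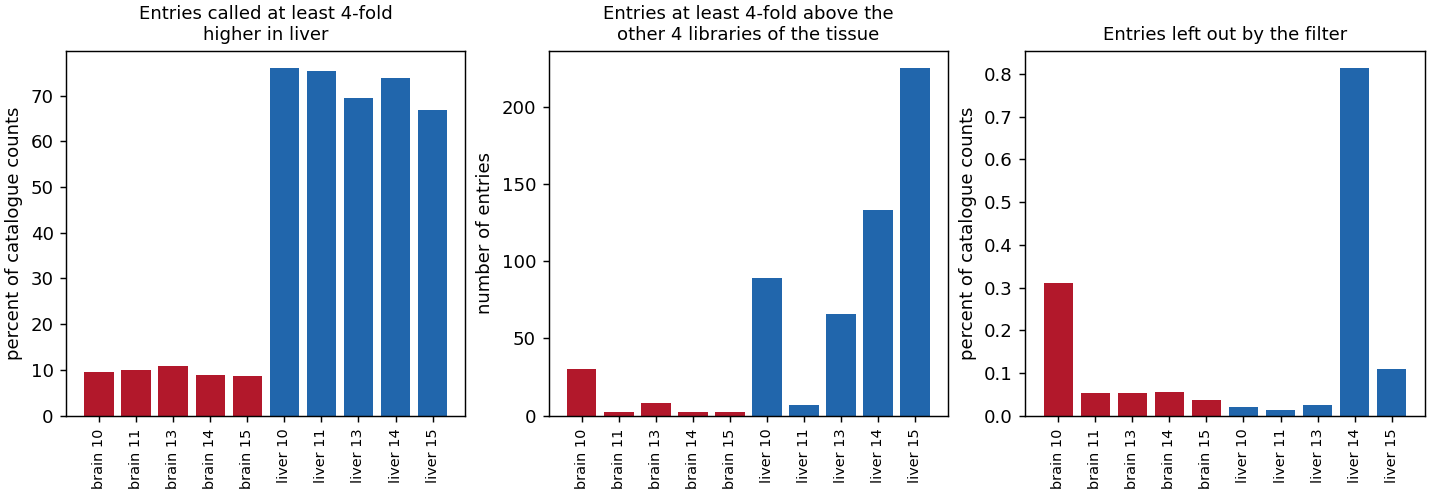
Bars starting at 0 give, for brain libraries at the left and liver libraries at the right of each panel, the percent of counts in the entries called at least 4-fold higher in liver, the number of entries at least 4-fold above the other 4 libraries of the tissue, and the percent of counts in the 2174 entries left out by the filter on low counts. Liver 15 has the lowest bar among livers in the first panel and the highest in the second, with 225 entries, and liver 14 and brain 10 stand out in the third, at 0.813% and 0.311%.

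Calls were spread unevenly over classes of entries. Of 12610 best bidirectional hits tested, 74.2% were called, and 50.5% of the calls were higher in brain. Of 3527 other entries, 73.9% were called, and 63.1% of the calls were higher in brain. The share of calls in either direction was thus near the 74.1% of all entries in both classes, while the split between the tissues differed by more than 10 points. Without scaling the brain's share was 83.2% for best bidirectional hits and 87.5% for the others.

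A like difference followed the number of entries that carry the same zebrafish identifier. With 1 entry per identifier, 50.2% of calls were higher in brain. With 2 it was 62.0%, with 3 it was 66.4% and with 4 or more 74.6%. The last class held 231 entries, of which 61.5% were called, below the 74.1% of all entries. By length, 61.4% of calls were higher in brain in the longest of 3 equal classes of entries, 50.2% in the middle one and 47.9% in the shortest. Entries of 2000 bases fell on both sides of the border between the middle and the shortest class. By level, 43.1% of calls were higher in brain in the most abundant of 3 equal classes, 54.3% in the middle one and 63.8% in the least abundant. Level was averaged over these same brain and liver libraries, so an entry can reach the most abundant class through 1 tissue alone. The split by level is therefore a description only. Without scaling, the brain's share of calls was 73.4%, 89.3% and 90.1% from the most to the least abundant class. From the longest to the shortest class it was 88.6%, 83.0% and 80.7%. With 1, 2, 3 and 4 or more entries per identifier it was 83.0%, 87.2%, 88.4% and 94.4%.

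Measured per library rather than per call, the tissues also differed, by exact 2-sided permutation tests over all 252 arrangements of 5 against 5. Best bidirectional hits held 82.7% ± 0.529 of the counts in brain and 87.9% ± 0.845 in liver (SD, n = 5 each, exact p = 0.00794). Entries with a shared identifier held 28.8% ± 0.872 in brain and 22.1% ± 1.59 in liver (SD, n = 5 each, exact p = 0.00794). Entries shorter than 1000 bases held 4.72% ± 0.569 in brain and 8.28% ± 0.507 in liver (SD, n = 5 each, exact p = 0.00794). The median entry length weighted by RPKM, with lengths implied by the counts and RPKM values, was 2032 ± 66.9 bases in brain and 1778 ± 99.3 bases in liver (SD, n = 5 each, exact p = 0.00794). This p is the smallest that the design allows, and it is the same after adjustment over the 4 tests. With the sign of each number's difference flipped instead, the exact p was 0.0625 for all 4, the smallest that 5 pairs allow. The measures were chosen with other results of these data known.

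Exactly 2 tested entries were carried by 1582 identifiers. Of these 3164 entries, 46.9% were called higher in brain and 28.8% higher in liver. Pairs of unrelated entries were not counted, so whether the copies differ more or less often than such pairs was not tested. Both copies were higher in brain for 451 identifiers (28.5%) and both higher in liver for 188 (11.9%). For 294 (18.6%) one copy was higher in brain and the other in liver. In 289 cases one copy was higher in brain and the other had no call, in 241 one was higher in liver and the other had no call, and in 119 neither was called. In 61 of the 294 pairs with opposite calls, both differences were at least 4-fold. The number of opposite pairs was 288 with the block and 194 without scaling. For 720 identifiers (45.5%) the log2 fold changes of the copies were at least 2 apart, and without scaling for 714 (45.1%). Whether such entries are gene copies or parts of 1 gene is not stated in the files.

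Skin was set beside both tissues for each set, with all 15 libraries scaled together. For the entries at least 4-fold higher in brain, the medians were 24.9 CPM in brain, 0.861 CPM in liver and 2.46 CPM in skin. Skin lay between both tissues for 65.7% of them and nearer to liver for 69.6%. For the entries at least 4-fold higher in liver, the medians were 4.63 CPM in brain, 75.6 CPM in liver and 19.1 CPM in skin. Skin lay between both tissues for 66.1% of these and nearer to liver for 49.5%. Over all tested entries skin lay between both tissues for 44.6% and nearer to liver for 55.8%. Both sets were chosen for a difference of at least 4-fold between brain and liver, which by itself leaves more room for skin between them.

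Counted on the gene models of the killifish genome instead of the catalogue, 14975 of 19645 models tested (76.2%) passed, with 8147 higher in brain and 6828 higher in liver. With the block, 14644 passed. The counts without scaling had the same tilt as in the catalogue, with 14102 models higher in brain and 2634 higher in liver.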

How the data were processed

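The authors deposited counts of reads per catalogue entry and per genome gene model, taken as raw since they are whole and their totals differ between libraries. They also deposited RPKM values, explained per the file headers, and a flag of 0 or 1 for best bidirectional hits, per the file headers. A TruSeq kit was used on total RNA, per the labels' protocols. Tools listed without roles in the submitters' processing notes are featureCounts 1.4.3-p1, TopHat2 2.0.6, Bowtie and CASAVA 1.8.2. Not given in the sources used here are the genome build, annotation, strand setting and treatment of multiply matching reads. The RPKM sheet's 60 columns for other samples were not used. Each entry length was solved from RPKM, count and library total, taking the median over libraries, and with these lengths 100% of RPKM values were matched within 1e-06. Since the lengths come from the same values, this tests only that 1 length per entry and the column total fit all libraries.

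Brain and liver were fitted with edgeR 4.0.16 in R 4.3.3. Entries were kept by filterByExpr with a count minimum of 10, libraries were scaled by TMM, and the quasi-likelihood test had tissue as its only term. P-values were adjusted by Benjamini-Hochberg, with a threshold of 0.05. A large difference was a call with a log2 fold change of at least 2 in size. CPM values are scaled by TMM, and the SE is the size of the log2 fold change divided by the square root of F. A second fit added the title number as a block. Alternatives were DESeq2 1.42.0, limma 3.58.1 on log2(RPKM + 0.5) and log2(RPKM + 0.1), no scaling, no filter, and libraries left out. The code was run on simulated counts with nearly the same composition in both tissues, which cannot examine the choice of scaling.

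The comparison, lists and measures were chosen with earlier results of these data known. The reference table, with 38438 genes, held none of the identifiers. The rule for named entries took, per direction, the 2 with the highest mean RPKM in the higher tissue among large calls. The separation of their groups and their calls in other fits are thus largely fixed by this choice. Series information calls the samples of a tissue biological replicates. Floors of 3 counts cover counting error only.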

Additional observations from a re-analysis of the deposited data

Results flagged for a closer look

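Of 26 groups of 5 libraries examined, 4 held a library whose gap to its nearest neighbour was above Dixon's critical value of 0.71 of the group's range. For a single group, chance gives this in about 1 of 20. The groups are measures of the same libraries and not independent, so the count of 4 cannot be set against that rate. Liver 15 was the library in 3 of the 4. It needed 181 entries for 50% of its counts, where the next highest liver needed 110. It had 96.9 CPM of Nofu_gene_3_0018779, where the next highest liver had 29.1 CPM, and 122 CPM of Nofu_gene_3_0000632, where the next had 44.1 CPM. In the fourth, brain 14 had a median length weighted by RPKM of 2152 bases, where the next highest brain had 2006. The other brains lay between 2000 and 2006 bases. Many entries have an implied length of exactly 2000 bases, so medians can gather there and this gap is hard to read.

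The filter on low counts left out 2174 entries. A few of these had at least 1000 counts in brain 10, liver 14 or liver 15, and none had as many in another brain or liver library. In brain 10 an entry with identifier ENSDARG00000038185 had 81428 counts, 0.264% of that library, where the next highest of the other brain and liver libraries had 29 and no skin library had more than 9. In liver 14 the left-out entries held 0.813% of the counts, where the next highest liver, liver 15, held 0.108%.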

How the results depend on the processing

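The alternatives that scale by totals moved the split between the tissues. Entries higher in brain numbered 11391 without scaling, 11593 without scaling but with the replicate block, 11680 by limma on RPKM with pseudocount 0.5 and 11683 with pseudocount 0.1. Entries higher in liver numbered 2140, 2023, 2061 and 2057 under these settings. At least 4-fold higher in brain were 6232 without scaling, 6424 with the block as well, 4917 by limma with pseudocount 0.5 and 6058 with pseudocount 0.1, and at least 4-fold higher in liver were 973, 923, 760 (pseudocount 0.5) and 874 (pseudocount 0.1). These settings all leave out the TMM factors. What makes those factors differ between the tissues, and which scaling lies nearer to the RNA levels in the tissues, was not tested. The paired fit, with the replicate block, called 11721 entries, and with a number left out in both tissues 10705 to 11915. Leaving out 1 library gave 11469 to 12683 calls, with 6124 to 6734 higher in brain and 5314 to 5949 higher in liver, 3492 to 3602 at least 4-fold higher in brain and 2224 to 2305 in liver. Without liver 14 and 15 together, chosen after seeing the data, 12598 were called. DESeq2 called 12155, best bidirectional hits alone gave 9306, entries summed by identifier 10384, no filter 12589 and the genome gene models 14975. The 4 named entries kept their direction and call under the alternatives fitted per catalogue entry. They were chosen as abundant entries with large calls, so this is largely fixed by the choice and supports nothing. They were not followed in the genome table or in entries summed by identifier. Counts of gene list members were not run because no list could be matched. Library totals of the tissues overlapped, and by totals alone a count of 0 allows up to 0.153 CPM in brain and 0.146 CPM in liver.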

Other observations

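The left-out entries of liver 14 included 8 with at least 1000 counts, which together held 0.756% of its counts. The highest pair had 93948 and 82184 counts there, carry the same zebrafish identifier (ENSDARG00000009612), and had 11493 and 4193 counts in liver 15. In all 8 entries liver 15 was the second highest of the 10 brain and liver libraries. Skin libraries reached 8201 counts in 1 of the 8 entries and 3328 in another. These entries were chosen after their values were seen.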
